A study of Mus musculus with 4 samples.

Results

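The proteins of the mitochondrial ribosome are encoded in the nucleus by genes whose symbols begin with Mrpl, for the large subunit, or Mrps, for the small subunit. All protein-coding genes with such a symbol followed by a number were taken from the deposited count table, which gave 78 of its 56748 genes, 49 Mrpl and 29 Mrps. Of these, 77 had enough counts to be tested, among 15167 tested genes. The remaining gene, Mrpl53, had 0 counts in all 4 libraries.

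The libraries were bulk RNA sequencing of lungs of female BALB/cJ mice carrying 4T1-FLuc metastases, 4T1 being a mouse triple-negative breast cancer (TNBC) cell line that was marked with firefly luciferase and injected through the tail vein. Libraries T25 and T26 came from mice given saline, named a PBS control in the sample labels. Libraries T29 and T30 came from mice given cmLumiOpto/PARPi for 3 weeks. This treatment combined exosome-enclosed AAV carrying an antibody to CD276 on its surface, the luciferin ViviRen and the PARP inhibitor olaparib. The vector encodes a luciferase and the light-gated cation channel CoChR, which is placed in the inner mitochondrial membrane, under a cfos promoter. There was no library of mice given cmLumiOpto or olaparib alone, so the agents cannot be told apart. The sample labels describe the material as tumour cells harvested from lungs, whereas the study's methods describe lung tissue with metastasis. Markers of alveolar and airway cells were detected in all 4 libraries, and so were those of epithelium such as 4T1. Nothing in the labels says whether more than one mouse contributed to a library, so p-values measure the spread between these libraries.

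Mitochondrial ribosomes translate the few proteins encoded by mitochondrial DNA, all of them subunits of the respiratory chain or ATP synthase. Their ribosomal RNAs are transcribed in the mitochondrion, while every one of their proteins is made in the cytosol and imported. Some of the proteins have a bacterial counterpart and others were acquired in the course of mitochondrial evolution. The genes are spread over the genome and are expressed in nearly all cells, with promoters that often carry sites for NRF1, ETS factors such as GABP, and YY1.

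Mrpl14, the member with the highest log2 fold change (0.81), has the NRF1 motif in its promoter and is not shown here. The upstream sequences of 5 other members with the motif and 1 without it are shown. Their log2 fold changes run from -0.46 (Mrps18b) to 0.67 (Mrpl32). Each is the stretch of 150 bases before the RefSeq start site in GRCm38.p6, written 5′ to 3′ on the strand of the gene, with each match to the NRF1 motif on either strand in capitals. The windows are chr11:120484487-120484636, plus strand (Mrpl12), chr13:14613038-14613187, minus strand (Mrpl32), chr7:105811088-105811237, minus strand (Mrpl17), chr11:97315566-97315715, plus strand (Mrpl45), chr16:84735245-84735394, minus strand (Mrpl39) and chr17:35916441-35916590, minus strand (Mrps18b).
Mrpl12: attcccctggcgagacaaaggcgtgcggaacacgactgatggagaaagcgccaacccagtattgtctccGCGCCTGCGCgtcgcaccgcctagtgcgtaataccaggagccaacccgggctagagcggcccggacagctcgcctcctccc
Mrpl32: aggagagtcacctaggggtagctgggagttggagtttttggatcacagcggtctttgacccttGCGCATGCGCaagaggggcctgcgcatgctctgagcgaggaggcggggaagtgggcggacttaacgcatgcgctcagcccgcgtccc
Mrpl17: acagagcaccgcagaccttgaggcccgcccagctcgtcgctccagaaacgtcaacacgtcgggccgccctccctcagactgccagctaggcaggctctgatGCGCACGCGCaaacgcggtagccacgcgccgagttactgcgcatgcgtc
Mrpl45: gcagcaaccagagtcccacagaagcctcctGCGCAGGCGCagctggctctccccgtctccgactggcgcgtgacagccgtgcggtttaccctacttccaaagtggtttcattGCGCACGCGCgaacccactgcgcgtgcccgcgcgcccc
Mrpl39: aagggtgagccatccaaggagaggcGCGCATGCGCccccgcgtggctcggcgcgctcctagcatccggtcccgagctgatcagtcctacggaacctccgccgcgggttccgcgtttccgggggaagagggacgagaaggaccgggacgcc
Mrps18b: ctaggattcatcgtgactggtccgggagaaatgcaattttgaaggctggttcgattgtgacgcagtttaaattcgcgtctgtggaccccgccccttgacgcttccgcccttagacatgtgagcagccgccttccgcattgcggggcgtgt
In Mrpl12, Mrpl32 and Mrpl17, both treated libraries were above both saline libraries (log2 fold changes of 0.62, 0.67 and 0.50). In Mrpl45, whose window holds 2 matches, the groups overlapped and the log2 fold change was 0.02. In Mrpl39 both treated libraries were below both saline libraries, with a log2 fold change of -0.13.

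The gene counts summed to between 15263375 and 16755228 per library, so that 3 counts, taken as the detection floor, correspond to 0.179 to 0.197 CPM, which expresses counts relative to library size. The floors use the plain library totals, and all other CPM values use totals adjusted by TMM factors. This floor covers counting error only. The share of all counts that fell on the 78 members was 0.254% in T25, 0.252% in T26, 0.347% in T29 and 0.336% in T30. No gene of the whole table passed an adjusted p of 0.05 in edgeR's quasi-likelihood test (0% of tested genes), so no member did, and the smallest adjusted p of a member was 0.138. At an unadjusted p under 0.05 there were 1397 higher genes and 1824 lower genes. Members are therefore described below by their values, their unadjusted p and the share of all genes with the same property. With 2 libraries against 2, an exact permutation test cannot give a two-sided p below 0.333.

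Mitochondrial ribosomal protein genes had higher CPM in the treated libraries in most cases, and the differences were small. The summed CPM of the members was 2562 in T25, 2619 in T26, 3351 in T29 and 3334 in T30. Each treated sum exceeded each saline sum, and the ratio of the group means was 1.29. The log2 fold change was above 0 in 71 of 77 members, against 52.0% of all tested genes, and ranged from -0.46 to 0.81 with a median of 0.35, against 0.02 over all tested genes. Both treated libraries were above both saline libraries in 60 members, a position held by 27.4% of all tested genes. Both were below in 3 members, Mrpl39, Mrps5 and Mrps18b, against 27.8% of all tested genes, and the groups overlapped in 14. At an unadjusted p under 0.05, 30 members were higher, or 39.0%, against 9.21% of all tested genes, and 0 were lower, against 12.0%. The 2 libraries of a group lay close together for a typical member, with a median gap of 0.12 on the log2 scale in saline and 0.11 in the treated group, although in 12 members the gap within saline was larger than the fold change.

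**Figure D1:**
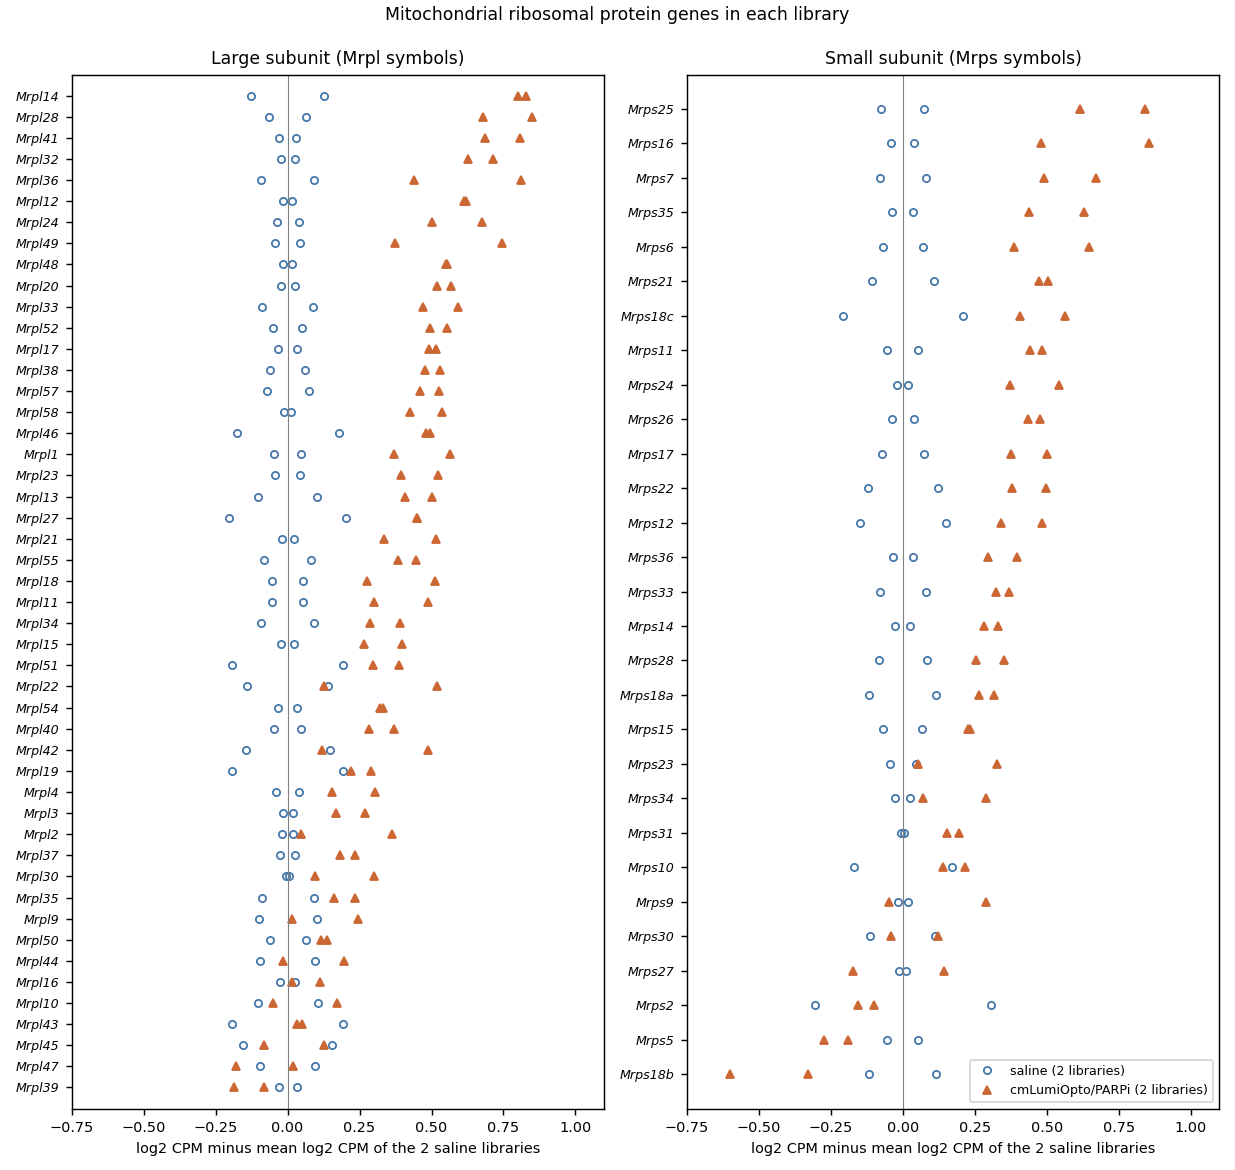
Each row is 1 of the 77 tested members, large subunit on the left and small subunit on the right, ordered by log2 fold change, and each point is 1 library. The horizontal axis is log2 CPM minus the mean log2 CPM of the saline libraries. In 60 rows both treated libraries (triangles) lie to the right of both saline libraries (circles), and in 3 rows they lie to the left.

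The direction did not rest on 1 library. T29 was above T25 in 67 members and above T26 in 66, and T30 was above each of them in 71. The median differences of these 4 pairs lay between 0.34 and 0.38 on the log2 scale, while T29 differed from T30 by a median of 0.02 and T25 from T26 by -0.04. Leaving out 1 library at a time lowered the number of members at an unadjusted p under 0.05 from 30 to between 15 and 19, with fewer libraries in each fit: 15 without T25, 19 without T26, 16 without T29 and 16 without T30. The share of all tested genes at this threshold and higher was 9.20%, 4.22%, 4.12% and 9.82% in these fits.

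Short transcripts as a class had higher CPM in the treated libraries, and most members are short. A gene's transcript length is the median over its basic transcripts in GENCODE M21, coding ones for protein-coding genes. Over the 15032 tested genes with a length, the log2 fold change and the transcript length were correlated (Spearman's rho = -0.42 across genes, which share the same 4 libraries). Members had a median transcript length of 1226 bases, against 2550 over all tested genes. Among the shortest group of genes, when all were divided into 5 groups of equal size (66 to 1339 bases), the median log2 fold change was 0.33 over all genes and 0.41 over the 43 members. In this group 52.7% of all genes and 86.0% of the members had both treated libraries above both saline libraries. In the next group (1341 to 2118 bases) the medians were 0.15 over all genes and 0.19 over 16 members.

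By annotated length, the members with long transcripts departed most from genes of their length. The annotated transcripts need not be those expressed, so the length group of a member and its loess-corrected value are approximate. In the 3 groups of longer transcripts, in order of length, all genes had medians of 0.02, -0.11 and -0.32, and the 5, 9 and 4 members there had medians of 0.48, 0.33 and 0.35. In the group of the longest transcripts both treated libraries were above saline in 7.75% of all genes and in 3 of the 4 members. These 3 were Mrps26, Mrpl19 and Mrps25. Other annotated genes cover 0.184%, 36.0% and 69.8% of their exonic bases, and whether the counting used strand is not stated. The counts of Mrpl19 and Mrps25 are therefore uncertain. When the trend over all genes with length and expression was removed by loess, the median of all members was 0.07, with 0.10 in the large and 0.01 in the small subunit, and 51 of 77 members (66.2%) were above 0, against 48.3% of all genes. The corrected value was above 0 in 36 of 48 Mrpl and 15 of 29 Mrps genes. The corrected log2 fold change was highest in Mrps25 (1.0), Mrpl17 (0.75) and Mrps35 (0.71), and lowest in Mrps18b (-0.84). What part the length trend had in the result was not tested.

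**Figure D2:**
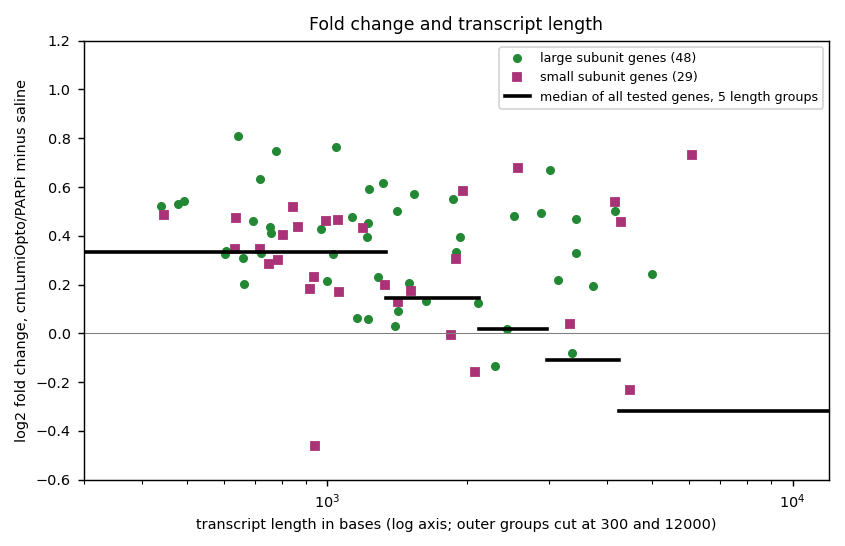
The horizontal axis is the transcript length on a log scale and the vertical axis is the log2 fold change of treated over saline libraries. Points are members by subunit, and black lines are the medians of all tested genes in 5 length groups, which go from 0.33 in the shortest to -0.32 in the longest group, while the members' medians in the 3 longer groups are 0.48, 0.33 and 0.35.

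The Mrpl genes of the large subunit had a median log2 fold change of 0.40, with 46 of 48 tested genes above 0. Both treated libraries were above both saline libraries in 38 Mrpl genes, and 21 were higher at an unadjusted p under 0.05. Over all tested genes these shares were 52.0%, 27.4% and 9.21%. In the shortest length group of all genes, 52.7% had both treated libraries above saline and 23.0% were higher. The median Mrpl transcript length, 1259 bases, falls in that group. The Mrpl genes summed to 1753 CPM in T25, 1773 in T26, 2316 in T29 and 2305 in T30. Mrpl14, a protein at the subunit interface with a bacterial counterpart (chr17:45686322-45698495, GRCm38, plus strand), had 34.6 CPM in T25, 41.2 in T26, 67.1 in T29 and 65.9 in T30. It had the highest log2 fold change of all members, 0.81 ± 0.15 (SE; edgeR's unadjusted p = 0.00202, adjusted p = 0.138). Both treated libraries were well above both saline libraries, and the saline libraries differed from each other by 0.25 on the log2 scale.

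Mrpl28, which also has a bacterial counterpart, had 46.0, 42.2, 79.4 and 70.6 CPM in T25, T26, T29 and T30 (log2 fold change 0.77 ± 0.14, SE). Mrpl41, a mitochondria-specific protein, had 25.7, 24.7, 44.0 and 40.5 CPM (0.75 ± 0.15, SE). In these 2 genes the gap between groups was several times the gap within either group. Mrpl32, whose protein matures in the mitochondrion by cleavage through the m-AAA protease, had 16.6, 16.0, 26.7 and 25.2 CPM (0.67 ± 0.18, SE). Mrpl36 had 22.8, 20.1, 37.6 and 29.1 CPM (0.63 ± 0.20, SE). For Mrpl36 the treated libraries differed more, with T29 above T30 by 0.37 on the log2 scale.

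The proteins around the stalk of the large subunit, where translation factors bind, did not all behave alike. Mrpl12, the repeated protein of the stalk itself, had 77.3 and 75.6 CPM in saline and 116.9 and 117.4 CPM in the treated libraries, with nearly equal values within each group (log2 fold change 0.62 ± 0.12, SE; edgeR's unadjusted p = 0.00258). Mrpl11, at the stalk base, had 39.0, 36.2, 52.7 and 46.3 CPM (0.40 ± 0.15, SE). Mrpl10, which anchors Mrpl12, had 53.0, 45.9, 47.6 and 55.5 CPM (0.06 ± 0.16, SE), and its groups overlapped. The difference between the fold changes of Mrpl12 and Mrpl10 was not tested.

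Other large subunit genes with known separate roles lay across the range. Mrpl58, a peptidyl-tRNA hydrolase built into the ribosome that can release stalled chains, had 26.7, 26.3, 38.5 and 35.6 CPM, all treated values above saline (0.48 ± 0.15, SE). Mrpl45, which lies at the exit of the peptide tunnel and ties the ribosome to the inner membrane, had 43.2, 34.8, 36.6 and 42.4 CPM (0.02 ± 0.18, SE), so that each group held one high and one low library. The lowest Mrpl genes beside it were Mrpl39, with 27.2, 28.4, 26.3 and 24.4 CPM (-0.13 ± 0.16, SE), and Mrpl47, with 25.1, 21.9, 20.7 and 23.8 CPM (-0.08 ± 0.19, SE). The treated libraries of Mrpl39 were both below saline by a small distance, and those of Mrpl47 overlapped with saline.

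The Mrps genes of the small subunit had a median log2 fold change of 0.35, with 25 of 29 genes above 0. Both treated libraries were above both saline libraries in 22 Mrps genes, and 9 were higher at an unadjusted p under 0.05. Over all tested genes these shares were 52.0%, 27.4% and 9.21%. Of all genes in the shortest length group, 52.7% had both treated libraries above saline and 23.0% were higher. The median Mrps transcript length, 1064 bases, falls in that group. The Mrps genes summed to 809 CPM in T25, 845.4 in T26, 1035 in T29 and 1029 in T30. The ratio of the summed Mrpl to the summed Mrps CPM was 2.17, 2.1, 2.24 and 2.24 in T25, T26, T29 and T30, so the treated libraries had a slightly higher ratio than either saline library. The difference between the subunits was not tested.

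Mrps25, a mitochondria-specific protein (chr6:92169525-92184033, GRCm38, minus strand), had 22.5, 20.2, 38.2 and 32.7 CPM (log2 fold change 0.73 ± 0.18, SE; edgeR's unadjusted p = 0.0064). Other annotated genes cover 69.8% of its exonic bases, and whether the counting used strand is not stated, so its counts are uncertain. Mrps16, with a bacterial counterpart, had 22.8, 24.1, 42.5 and 32.7 CPM (0.68 ± 0.19, SE). Both genes had all treated values above saline, and T29 was above T30 in each.

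Mrps7, a protein of the head of the small subunit, had 44.4, 39.7, 67.0 and 59.0 CPM (0.58 ± 0.15, SE). Mrps35 had 27.9, 29.4, 38.8 and 44.3 CPM (0.54 ± 0.16, SE), and Mrps6 had 34.9, 38.5, 47.9 and 57.4 CPM (0.52 ± 0.16, SE). In Mrps35 and Mrps6, T30 and not T29 was the higher treated library. Mrps12, part of the decoding centre, had 12.5, 10.2, 15.7 and 14.3 CPM (0.41 ± 0.23, SE). Its treated values were above saline, with an unadjusted p of 0.13 in edgeR's test.

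At the low end of the small subunit were Mrps18b, Mrps5 and Mrps2. Mrps5, in the entry region for messenger RNA, had 41.1, 44.3, 35.3 and 37.4 CPM (-0.23 ± 0.15, SE), with both treated libraries below both saline libraries. Mrps2 had 27.8, 42.4, 32.01 and 30.81 CPM (-0.16 ± 0.23, SE). The saline libraries of Mrps2 differed by 0.61 on the log2 scale and enclosed both treated libraries, and without T26 its log2 fold change was 0.16.

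The 3 Mrps18 paralogs took different positions. Their proteins descend from one bacterial protein, and structures of the ribosome place Mrps18b and Mrps18c in the small and Mrps18a in the large subunit. Mrps18c had 12.2, 16.4, 20.9 and 18.8 CPM (0.47 ± 0.23, SE), and Mrps18a had 29.1, 34.2, 37.9 and 39.3 CPM (0.29 ± 0.16, SE). Mrps18b (chr17:35910379-35916389, GRCm38, minus strand) had 13.0, 15.3, 9.33 and 11.3 CPM, the lowest log2 fold change of all members at -0.46 ± 0.24 (SE; edgeR's unadjusted p = 0.103). Thus both treated libraries were above saline for Mrps18a and Mrps18c and below saline for Mrps18b, with no p under 0.05 for any of them and no test of the difference between them. Other annotated genes cover 30.5% of the exonic bases of Mrps18b and 23.2% of those of Mrps18c.

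Sorting the genes by where the proteins sit moved the medians little. With Mrps30 and Mrps18a counted in the large subunit and Mrps36 left out, the large subunit had a median of 0.37 and the small subunit of 0.38, so that the order of the subunits by median reversed. Mrps30 itself had 22.1, 18.9, 19.9 and 22.2 CPM, with overlapping groups (0.04 ± 0.19, SE). Mrps36, now known as a subunit of the alpha-ketoglutarate dehydrogenase complex and not of the ribosome, had 16.68, 17.51, 20.96 and 22.5 CPM (0.35 ± 0.18, SE). Large subunit proteins with a bacterial counterpart (30 genes) had a median of 0.41 and mitochondria-specific ones (19 tested genes) of 0.33. In the small subunit these medians were 0.42 (16 genes) and 0.35 (9 genes).

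Expression levels differed far more between members than between groups. Per kilobase of transcript, the mean level over the 4 libraries ranged 33.0-fold among Mrpl genes, with a median of 31.3 CPM per kilobase. Among Mrps genes it ranged 22.4-fold, with a median of 22.8. The length is a median over annotated transcripts, which need not be those expressed. Other genes cover 36.0% and 69.8% of the exonic bases of Mrpl19 and Mrps25, the low ends of these ranges, so ranges and ranks are approximate. Mrpl52 was at the top with 113.5, 121.7, 165.6 and 172.7 CPM per kilobase, followed by Mrpl13 with 104.6, 120.8, 149.1 and 159.0. These neighbours overlapped in their spread over libraries, as did Mrps21 (80.9, 93.9, 123.7 and 121.0) with Mrpl13. Mrps17, the next Mrps gene, had 51.1, 56.6, 76.1 and 69.7 CPM per kilobase. The lowest was Mrpl19 with 4.50, 3.45, 4.59 and 4.81 CPM per kilobase, next to Mrps25 (3.70, 3.33, 6.30 and 5.38), Mrps30 (6.65, 5.69, 5.98 and 6.69) and Mrpl1 (5.81, 5.44, 8.31 and 7.26). The spread of Mrpl19 overlapped that of Mrps25 and lay below those of Mrps30 and Mrpl1, while Mrps25, Mrps30 and Mrpl1 overlapped each other. The order of the members was nearly the same in both groups (Spearman's rho = 0.93 between the mean log2 CPM of the groups across the 77 members, which share libraries and gene lengths).

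**Figure D3:**
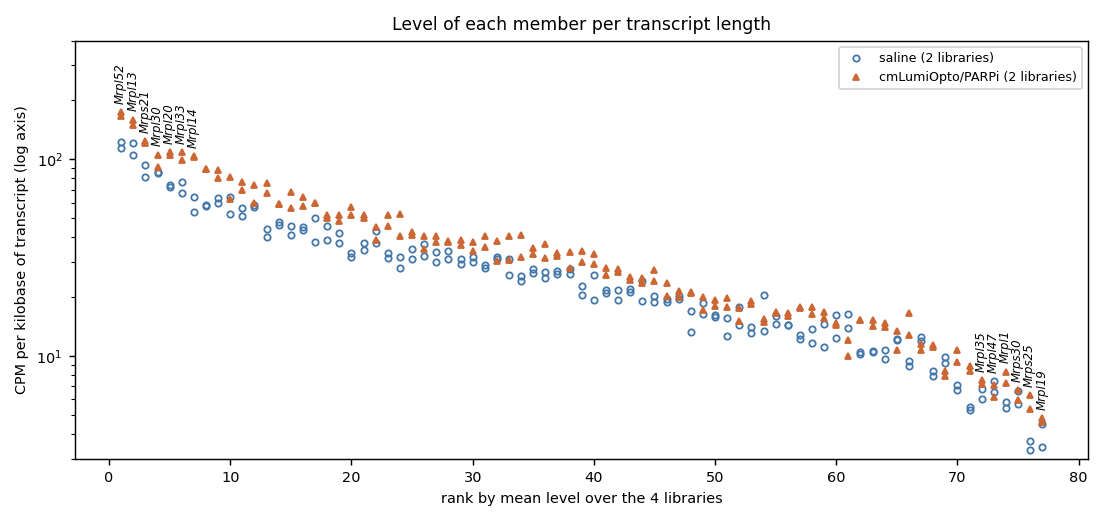
The horizontal axis is the rank of each of the 77 detected members by mean level and the vertical axis, on a log scale, is its level in CPM per kilobase of transcript in each of the 4 libraries (circles saline, triangles treated). The levels go from a mean of 143.4 for Mrpl52 to 4.34 for Mrpl19.

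Mrpl53 was the only member with 0 counts in every library. This lies below the floor of 0.179 to 0.197 CPM per library. Other genes, with Gm42688 on the same strand, cover 88.0% of its exonic bases in the GENCODE M21 annotation. How reads on such bases were counted is not known, so the 0 counts set no limit on its expression. Mrps34 (77.8%) and Mrps25 (69.8%) were the only other members with more than 50% covered. Among the 60 tested members with under 10% of their exonic bases covered, the median log2 fold change was 0.34, against 0.35 over all 77.

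The 5 mitochondrial ribosomal proteins with symbols of another kind had a median log2 fold change of 0.25. Aurkaip1 had 49.98, 47.9, 63.4 and 64.6 CPM (0.39 ± 0.13, SE; edgeR's unadjusted p = 0.0276). Chchd1 had 18.7, 21.2, 35.2 and 25.6 CPM (0.61 ± 0.22, SE; edgeR's unadjusted p = 0.0324). Ptcd3 and Gadd45gip1 had log2 fold changes of 0.21 and 0.25, with treated libraries above saline and unadjusted p-values of 0.211 and 0.269. Dap3, a GTP-binding protein of the small subunit first described as a mediator of apoptosis, had 74.8, 73.3, 68.1 and 82.9 CPM, with overlapping groups (0.03 ± 0.15, SE).

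The genes that build or serve the mitochondrial ribosome were counted in the same way, and their differences from the members were not tested. Of 28 assembly factors, 6 were higher at an unadjusted p under 0.05 (21.4%) and 0 lower, with a median of 0.27. Over all tested genes these shares were 9.21% higher and 12.0% lower. The highest was Mettl17, a factor of small subunit assembly, with 6.52, 5.59, 13.3 and 9.27 CPM (0.90 ± 0.30, SE), and the others were Mrm2, Mterf3, Mtg1, Ngrn and Fastkd2, between 0.53 and 0.70. The lowest was the rRNA methyltransferase Nsun4 with 19.6, 17.7, 15.2 and 15.0 CPM (-0.31 ± 0.19, SE). The list of translation factors held 18 genes, among them related ones such as Lrpprc, Slirp and Oxa1l. Of these 18 genes, 0 were higher or lower, with a median of 0.28. They ranged from Pdf (-0.74, at under 1 CPM) to the release factor Mtrf1l (0.76). Pdf was at -0.12 without T29 and -1.87 without T30, and Mtrf1l at 0.47 without T26.

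Of 20 genes for mitochondrial aminoacyl-tRNA synthesis, 1 was higher, Hars2, with 15.7, 16.2, 24.0 and 21.1 CPM (0.50 ± 0.19, SE). Their median was 0.09 and the lowest was Pars2 (-0.53 ± 0.27, SE). Of 14 genes of mitochondrial transcription and RNA processing, 2 were higher, Trmt10c (0.48 ± 0.18, SE) and Pnpt1 (0.41 ± 0.16, SE), with a median of 0.21, Prorp lowest (-0.30) and Mterf1b highest (0.76, at 1.19 to 2.48 CPM). Prorp was at -0.67 without T29 and -0.02 without T30, and Mterf1b at 0.49 without T29. The higher genes were 5.0% of the aminoacyl-tRNA list and 14.3% of the transcription and RNA processing list. Both shares are near the 9.21% over all tested genes. These lists, with the assembly and translation factors, also hold longer transcripts than the members, with median lengths of 1606, 1920, 2382 and 2326 bases in the order given.

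Regulators known to act on these genes mostly had log2 fold changes below 0. Of the 9 tested, the median log2 fold change was -0.25 and 7 were below 0. Above 0 were 22.2% of them, against 52.0% of all tested genes. Both treated libraries were below both saline libraries in 4, against 27.8% of all tested genes. At an unadjusted p under 0.05, 1 was higher and 1 lower, against 9.21% and 12.0% of all tested genes. Gabpa, the DNA-binding subunit of GABP, had 74.5, 89.5, 61.6 and 65.4 CPM (-0.37 ± 0.15, SE; edgeR's unadjusted p = 0.0493). Nrf1 had 44.8, 37.1, 31.6 and 35.4 CPM, Ppargc1b, a coactivator, had 2.51, 2.66, 1.90 and 0.842 CPM (-0.91 ± 0.54, SE), and in all of these both treated libraries were below both saline libraries. Ppargc1b was at -1.61 without T29 and -0.46 without T30. Esrra, an orphan nuclear receptor of mitochondrial gene programmes, was on the other side with 36.8, 38.0, 48.8 and 46.3 CPM (0.35 ± 0.14, SE; edgeR's unadjusted p = 0.0487). The regulators have a median transcript length of 3493 bases. All tested genes of 2975.5 to 4234 bases had a median log2 fold change of -0.11. What part transcript length had in the regulators' values was not tested.

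**Figure D4:**
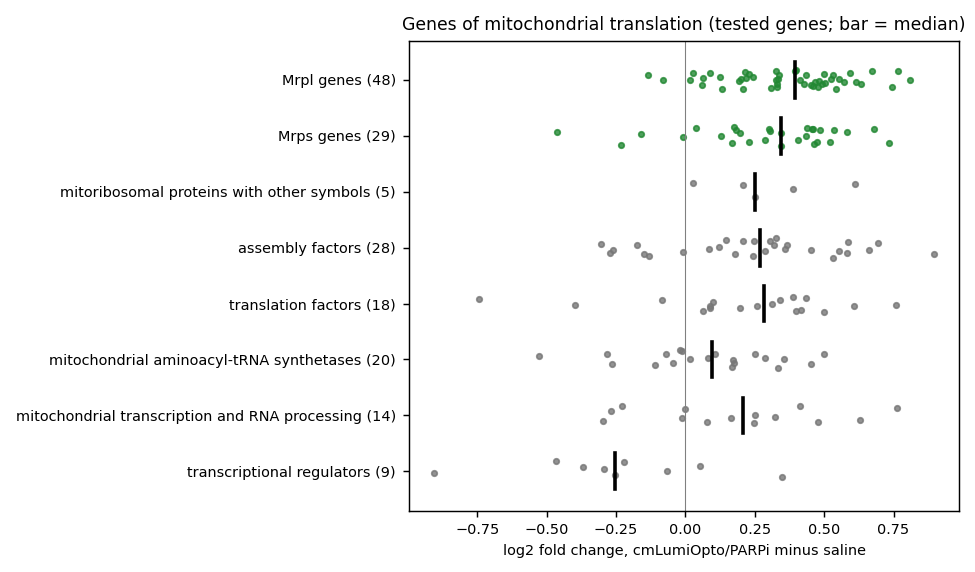
Each point is a tested gene and each vertical bar the median of its list. The horizontal axis is the log2 fold change of treated over saline libraries. The medians are 0.40 for Mrpl and 0.35 for Mrps genes, between 0.09 and 0.28 for the other lists of mitochondrial ribosome, translation and RNA genes, and -0.25 for the regulators. Vertical scatter within a list only separates the points.

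Among other gene groups with short transcripts, the 84 tested cytosolic ribosomal protein genes had a median log2 fold change of 0.33, with 30 higher at an unadjusted p under 0.05 (35.7%). The 84 tested nuclear-encoded subunits of the respiratory complexes had a median of 0.46, with 51 higher (60.7%). Over all tested genes 9.21% were higher. In both groups, 0 were lower. Their median transcript lengths were 762.5 and 737 bases. In the shortest length group of all genes (66 to 1339 bases), the median was 0.33 and 23.0% were higher. The members' median of 0.35 lay between these values, and the differences between the lists were not tested.

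RefSeq promoter sequences (250 bases before to 50 after the start) were matched to 69 members, with 75 promoters. On either strand, the NRF1 motif, in the form marked above with 1 free base, was in 17.3% of the member promoters, against 4.60% of all promoters and 8.92% of those of tested genes. The ETS motif CCGGAAGT was in 16.0%, against 3.89% and 7.32%, and the YY1 motif ATGGCGGC was in 16.0%, against 2.24% and 4.30%. The E-box CACGTG was in 9.33% (7.15% and 9.66%), the CRE TGACGTCA in 2.67% (1.79% and 2.84%) and the TATA motif TATAAA in 6.67% (13.6% and 7.61%). These shares count promoters, so a member with several start sites counts more than once. The 7 member promoters with an E-box belong to 5 members, since Mrpl2 has several. None of the motifs shares its whole sequence with another. The 13 members with the NRF1 motif had a median log2 fold change of 0.46, against 0.40 in the 55 without it. For the ETS motif these medians were 0.43 in 12 and 0.35 in 56 members, and for the YY1 motif 0.19 in 11 and 0.43 in 57. The matches and medians are descriptions, with no test.

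Many members share their promoter region with a neighbour. A gene on the opposite strand starts within 1000 bases upstream of 26 members, or overlaps the start by up to 500 bases (33.3%, against 9.51% of 22028 protein-coding genes in GRCm38). The partners did not all have the members' fold changes. The 24 tested partners that are no members themselves had a median log2 fold change of 0.07, while the members beside them had a median of 0.33. Of these partners 15 were above 0, against 52.0% of all tested genes. At an unadjusted p under 0.05, 4 were higher and 1 lower, against 9.21% and 12.0% of all tested genes. Mrpl36 and Ndufs6, a complex I subunit, were similar (0.63 and 0.65), as were Mrpl49 and Fau, a precursor of a cytosolic ribosomal protein (0.57 and 0.57). Mrpl51 and Ncapd2, a condensin subunit, had opposite signs (0.33 and -0.51), as did Mrps5 and Zfp661 (-0.23 and 1.22). Levels of Zfp661 were low, with 1.00, 1.02, 2.76 and 1.99 CPM in T25, T26, T29 and T30. Next to Mrpl30 (0.20) the partner Mitd1 had 0.83. One pair consists of members from both subunits, Mrpl46 and Mrps11, with log2 fold changes of 0.48 and 0.46.

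Markers of other cell types differed between the groups and between libraries of 1 group. The summed CPM of 5 alveolar type 2 markers was 1481 in T25, 292.5 in T26, 7829 in T29 and 2721 in T30. All 15 markers of alveolar, airway secretory and ciliated cells were higher in both treated libraries, a position held by 27.4% of all tested genes. The 4 fibroblast markers summed to 2430, 1718, 681.7 and 780.3 CPM, with 3 lower at an unadjusted p under 0.05, against 12.0% of all tested genes. Of the 5 leukocyte markers, which summed to 2225, 1363, 4006 and 3059 CPM, 1 had both treated libraries above both saline libraries, Lyz2, and it made up most of the sum with 1693, 1141, 3619 and 2441 CPM. The 5 markers of 4T1 or other epithelium summed to 2592, 3011, 2309 and 3402 CPM, with overlapping groups. No marker of these lists was at 0 in all libraries. In bulk tissue, fewer cells of a type and less RNA per cell cannot be told apart, and the part of cell composition in the members' fold changes was not tested.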

How the data were processed

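RNA of 2 saline and 2 cmLumiOpto/PARPi libraries was sequenced on poly-A selected RNA. The authors mapped the reads with HISAT2 and deposited raw read counts per gene, without normalization. The counting tool and strand setting are not given in the sources used here. The study's methods name GRCm38 and the submitters' processing notes mm39. Since 2.92% of the 52125 table genes listed in GENCODE M21 have identical positions in it, coordinates are those of GENCODE M21 and RefSeq (GRCm38).

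Counts were tested with edgeR 4.0.16 in R 4.3.3 (quasi-likelihood test after TMM scaling, genes kept by filterByExpr at a minimum count of 10, Benjamini-Hochberg adjustment over all tested genes, threshold 0.05), after tests on simulated data. SE is the size of the log2 fold change over the square root of F. The members, lists and comparisons were chosen with earlier results of these data known. Named in the text were, in each subunit, the 5 highest and 3 lowest members by log2 fold change and the 2 highest and lowest by level, the Mrps18 paralogs, members with distinct roles, the ribosomal proteins with other symbols, and the extremes of each list. List genes at an unadjusted p under 0.05, promoter partners and shown promoters were named after their values were seen. Alternatives were DESeq2 1.42.0, other size factors, no filter, the other glmQLFit option, a replicate block, a loess correction (span 0.5) and leaving out each library. No column of another sample was in the table.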

Additional observations from a re-analysis of the deposited data

How the results depend on the processing

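The median log2 fold change of the members stayed above 0 under every alternative run. With library totals in place of TMM factors it was 0.412 (large subunit 0.463, small subunit 0.410), with a ratio of summed CPM of 1.35 and 40 members at an unadjusted p under 0.05 (higher genes at this threshold were 11.6% of all tested, against 9.21%, and the median of all genes was 0.088, against 0.022). With the loess correction it was 0.074 (0.104 and 0.009). Leaving out each library in turn gave 0.319 to 0.365 (0.327 to 0.420 and 0.296 to 0.349), 15 to 19 members at an unadjusted p under 0.05 and 0 to 31 genes past the adjusted threshold. The lone library of a group was then assumed to vary like the others.

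The adjusted threshold was sensitive to the test. DESeq2 called 981 genes (319 higher and 662 lower), edgeR without the filter 2000 of 25435 tested (934 and 1066), and edgeR with the replicate block 1822 (752 and 1070). Of these 5, 8 and 8 were members, all higher. That is 6.49%, 10.4% and 10.4% of the tested members, against 6.47%, 7.86% and 12.0% of all tested genes called and 2.10%, 3.67% and 4.96% called higher. Mrpl12, Mrpl14, Mrpl28, Mrpl41 and Mrps25 were called in all 3, and 9 members in at least 1. The replicate numbers pair no mice. The deviations of same-numbered libraries from their group means had a Spearman's rho of 0.298 across 15167 genes. With 2 libraries per group, the opposite pairing must give the same size with the other sign, so this value cannot show a pairing. Genes of the other lists at an unadjusted p under 0.05, higher or lower, numbered 13, against 5 with DESeq2 and 16 with the replicate block. The share of all tested genes higher at this threshold was 9.21%, 8.49% and 14.6% in these fits. In the first fit a further 12.0% of all tested genes were lower. The list counts hold both directions, so they cannot be read against the higher shares alone.

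The sign of small differences depended on single libraries. With each library left out in turn, the log2 fold change ranged from -0.142 to 0.161 for Dap3, -0.076 to 0.165 for Mrpl10, -0.146 to 0.167 for Mrpl45, -0.204 to 0.014 for Mrpl47, -0.447 to 0.161 for Mrps2, -0.086 to 0.141 for Mrps30 and -0.229 to 0.615 for mt-Nd5. The value turned without T26 for Dap3, Mrpl10, Mrpl45, Mrps30 and Mrps2, without T30 for the first 4 of these, without T25 or T29 for Mrpl47, and without T29 for mt-Nd5. Values also moved by over 1.5 times with the sign kept: Chchd1 was 0.362 and mt-Rnr2 0.216 without T29, Mrps18a 0.159 and Mrps18c 0.263 without T25, and Mrps12 0.248, Mrpl19 0.047 and mt-Rnr1 0.692 without T26. The cause was not tested. Tested members had at least 149 counts in each library, and there were 2 libraries per group.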

Other observations

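The RNAs of the mitochondrial genome, with which the members assemble or which they translate, varied more between libraries than the members did. The small subunit rRNA mt-Rnr1 had 168.5 CPM in T25, 97.7 in T26, 323.3 in T29 and 227.7 in T30 (log2 fold change 1.05 ± 0.30, SE; edgeR's unadjusted p = 0.0144), and the large subunit rRNA mt-Rnr2 had 219.4, 169.6, 353.3 and 226.2 CPM (0.58 ± 0.25, SE). In both, the treated libraries were above saline, and T29 was the highest library. These rRNA counts come from poly-A selected RNA. The mitochondrially encoded protein genes summed to 11030, 11890, 20530 and 12840 CPM. All 12 tested had a log2 fold change above 0, with a median of 0.64, and 3 were higher at an unadjusted p under 0.05. Over all tested genes, 52.0% were above 0 and 9.21% were higher at this threshold. The 12 genes had a median transcript length of 870.5 bases. In the shortest length group of all genes (66 to 1339 bases), the median was 0.33 and 23.0% were higher. Among the summed CPM, T29 alone was far above the saline libraries.

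Of 6 pseudogene rows with names of members, 3 had enough counts to be tested, and 1 of these was at an unadjusted p under 0.05. Mrpl48-ps had 62, 78, 211 and 137 counts (log2 fold change 1.15 ± 0.34, SE; edgeR's unadjusted p = 0.0161), against 0.55 ± 0.17 (SE) for Mrpl48. Reads can be shared between a gene and such a copy, so both values are uncertain. Mrpl23-ps1 had 55, 47, 70 and 45 counts, with overlapping groups.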
